A study of Mus musculus with 12 samples.

Results

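Integrins and laminins were represented on the arrays by 35 of 27962 gene names, 25 for integrin subunits and 10 for laminin chains. They were chosen by name alone: every probe, other than control spots, whose gene name was Itga or Itgb followed by a subunit number or letter, or Lama, Lamb or Lamc followed by a chain number. These names covered 96 spots and 78 distinct probes. Each gene was followed with its brightest probe, and 12 of the genes had 1 probe. The accession of that probe led to the same gene in the RefSeq annotation for 26 genes, and the other 9 (*Itga6*, *Itga10*, *Itgam*, *Itgav*, *Itgax*, *Itgb3*, *Itgb8*, *Lama3* and *Lama5*) rest on the name in the array files.

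The cells were C57MG, a line of mouse mammary epithelial cells grown as monolayers. Treatment lasted 24 h, in DMEM free of serum and insulin, and consisted of the carrier protein BSA, of recombinant human Rspo2 at 100 ng/ml, of recombinant mouse Wnt3a at the same dose, or of both proteins at these doses. Each of the 4 groups had 3 monolayers, each monolayer gave 1 array, and the comparisons ask which genes responded to Rspo2, to Wnt3a and to their combination. Because all monolayers came from 1 line treated in culture, the p-values measure the spread between monolayers of that line. A level is the log2 ratio of the background-subtracted signal to the 75th percentile found on the same array, so that 0 stands at that percentile. Since probes differ in how brightly they hybridize, the level of a probe is compared here with the same probe in other groups and with no other probe.

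Integrins are receptors made of 1 alpha and 1 beta subunit that span the cell membrane and link the extracellular matrix to the actin or keratin cytoskeleton. Laminins are secreted trimers of an alpha, a beta and a gamma chain that form much of the basement membrane on which mammary epithelium rests, and the beta1 and beta4 integrins that bind them hold basal epithelial cells to it. Rspo2 is a secreted protein that raises the response of cells to Wnt ligands, and Wnt3a is a ligand of the Wnt/β-catenin pathway.

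A probe counted as detected when the scanner software called its signal well above background in a whole group, that is on its 3 arrays. By this measure 24 of the 35 genes were detected, and 20 were seen on each of the 12 arrays. Group by group, 22 genes met the criterion with BSA, 20 with Rspo2, 21 with Wnt3a and 24 with both proteins. *Itga2*, *Itga9*, *Lama1* and *Lama4* were well above background on no array. *Itga8*, *Itgam*, *Itgb6* and *Lamc3* were so on 1 array each, and *Itga4*, *Itgax* and *Lama2* on 2 arrays each, so no change is given for any of these 11 genes. A weaker criterion, the software's mark for a signal that was positive and differed from background, was met by 28 genes. The number of the 35 genes above background on single arrays ran from 20 to 27, in parallel with the share of all probes above background (51.3% to 64.2%), and BSA replicate 1 had the highest value of both. No probe of the 35 genes was saturated.

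**Figure D1:**
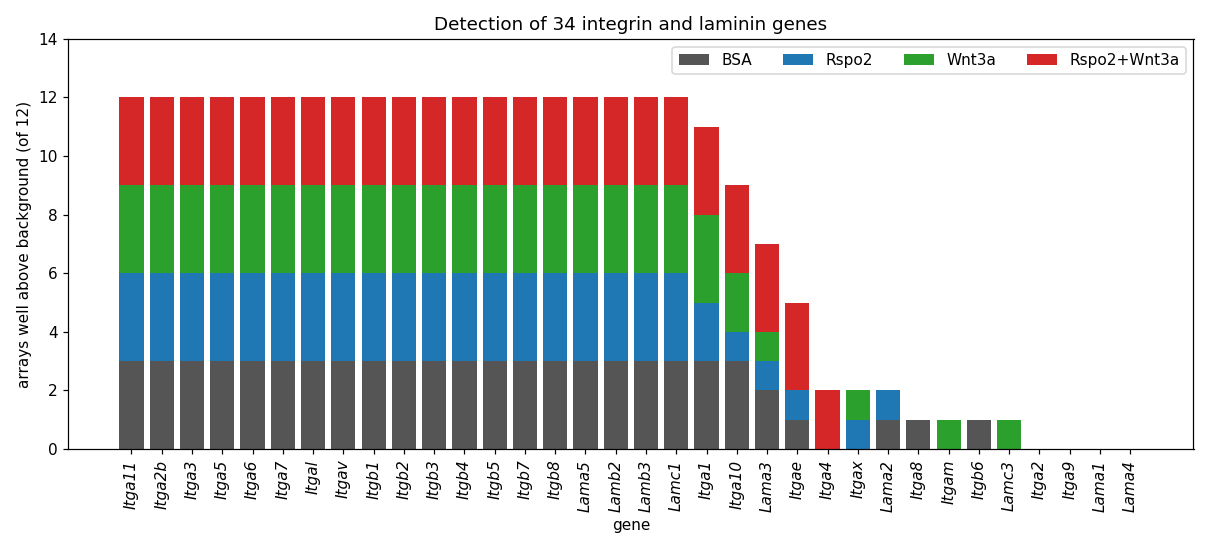
Number of arrays, of 12, on which the brightest probe of 34 of the 35 genes was well above background, stacked by treatment group. A block of 19 genes reaches 12 arrays, and *Itga2*, *Itga9*, *Lama1* and *Lama4* stand at 0.

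Of the 8 beta subunits on the arrays all but *Itgb6* were detected. In the check of the labelled cell type, the luminal markers *Krt18*, *Krt19*, *Epcam* and *Cdh1* were not detected and *Krt8* was, whereas the basal markers *Krt14*, *Krt17*, *Trp63* and *Acta2* and the mesenchymal markers *Vim*, *Col1a1*, *Col1a2*, *Pdgfra* and *Pdgfrb* were above background on all 12 arrays. The summed signal of the 5 basal markers, in multiples of the 75th percentile, was 132.7 to 140.4 on BSA arrays and 220.1 to 257.8 on those of the combination, with Rspo2 (170.8 to 192.8) and Wnt3a (185.4 to 206.4) between them. The members of this list differed in direction with both proteins. On the log2 scale *Krt14* (1.24) and *Acta2* (0.78) rose, *Krt17* (-0.35) and *Trp63* (-0.40) fell, and *Krt5* (0.22) did not pass. *Krt8* fell with both proteins by 1.15 (adjusted p = 0.000365) and with Wnt3a by 0.69 (adjusted p = 0.00896). The sum over 6 mesenchymal markers overlapped between BSA (229.3 to 250.7) and the combination (239.5 to 241.0). The sum over 4 endothelial markers, of which *Cdh5* was detected, went from 2.43 to 2.60 with BSA to between 1.63 and 1.75 with both proteins. The basal and endothelial sums and *Krt8* thus moved with the treatments beside the changes described here, and their part in those changes was not tested. RNA came from whole monolayers, so fewer cells with a transcript and less of it per cell cannot be told apart.

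Treatment with both proteins lowered more of these genes than it raised. Of the 24 tested, 13 fell and 3 rose at an adjusted p under 0.05, the meaning of fell and rose throughout, while 17.3% of all 22750 tested probes fell and 21.9% rose. With a change of at least 2-fold required in addition, 5 of the 24 genes were changed, all lower, against 5.08% of all probes. The 5 were *Itga11* (4.12-fold lower), *Itgb3* (3.06-fold), *Lama5* (2.48-fold), *Itgb7* (2.35-fold) and *Itga10* (2.13-fold), although a further probe of *Itgb3* did not show its change. *Itgb1* and *Itgae* were among the 3 that rose, by 1.39- and 1.44-fold, although *Itgae* was tested only because it was above background on all 3 arrays of the combination, the group where it was high, and was mostly below background elsewhere. The median change of the 24 genes was -0.47 on the log2 scale, and that of all tested probes was 0.04. When the percentile was taken over the probes above background on all arrays, the median of all probes moved from 0.04 to -0.07. In that setting 13 of the 24 genes again fell and 3 rose, while 23.6% of all probes fell and 14.9% rose. Of the 16 changes, those of *Itga10*, *Itga3*, *Itga5* and *Itgae* lost their call when some single arrays were left out. No slide of the array set held BSA beside the combination, and with slide as a further term in the fit *Itgb3* was the 1 gene of the 24 that passed.

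**Figure D2:**
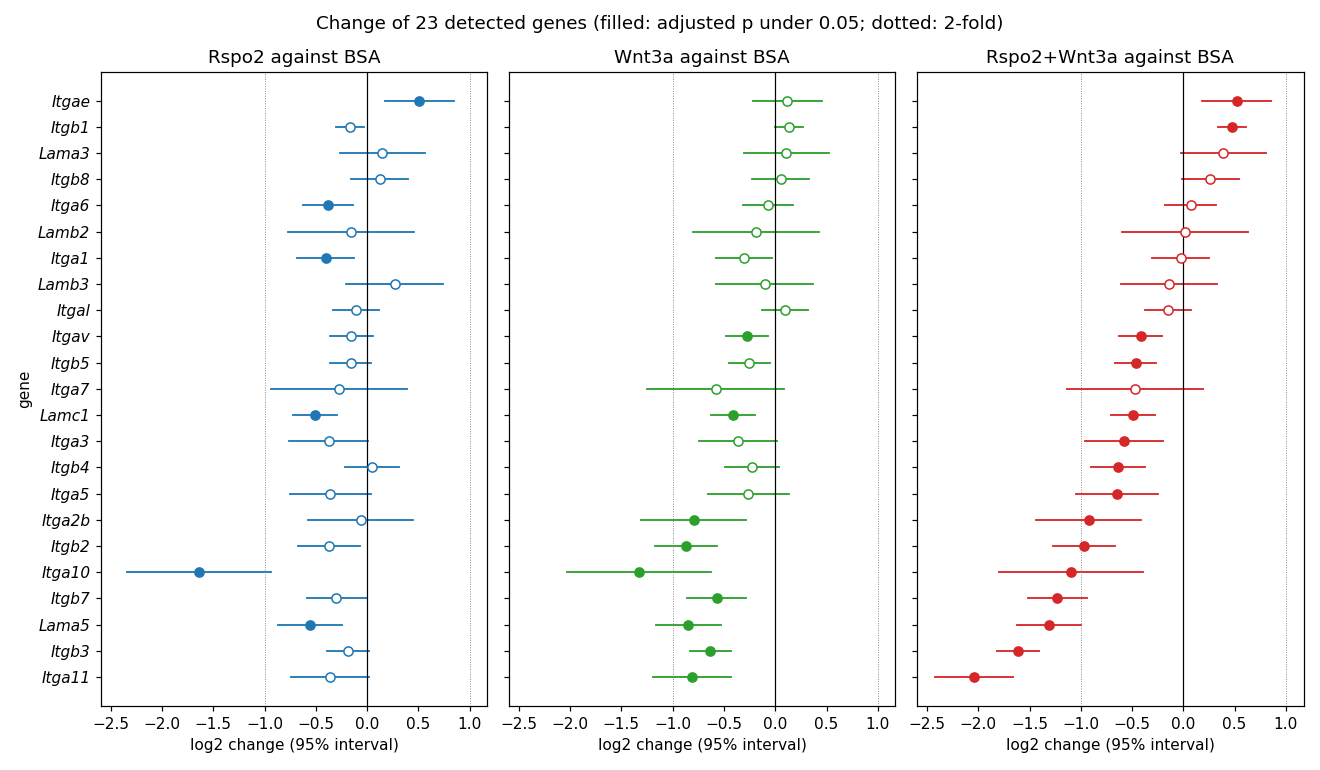
Log2 change of 23 of the 24 detected genes with Rspo2, Wnt3a or both proteins against BSA (points, with 95% intervals from the limma fit, n = 3 arrays per group), ordered by the change with both. Filled points have an adjusted p under 0.05, and with both proteins 13 filled points lie below 0 and 2 above.

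The stretches just upstream of the transcription start are shown for 4 of the 5 genes lowered by the combination and for *Itgb1*, the beta subunit that rose, since these are the genes on which the results turn. They are the 250 bases before the start in the RefSeq annotation of build GRCm38.p6, written 5′ to 3′ on the strand of the gene, and the table used here held starts for 22 of the 35 genes. Gene positions are given on the same build. Capitals mark CTTTG or, for the other strand, CAAAG, the core letters of the motif bound by the Tcf/Lef factors through which β-catenin acts. The stretches are those of *Itga11* (chr9:62677605-62677854, plus strand, 0 matches), *Itgb7* (chr15:102231936-102232185, minus strand, 1 match), *Lama5* (chr2:180225860-180226109, minus strand, 0 matches), *Itga10* (chr3:96645334-96645583, plus strand, 1 match) and *Itgb1* (chr8:128685404-128685653, plus strand, 1 match).
Itga11: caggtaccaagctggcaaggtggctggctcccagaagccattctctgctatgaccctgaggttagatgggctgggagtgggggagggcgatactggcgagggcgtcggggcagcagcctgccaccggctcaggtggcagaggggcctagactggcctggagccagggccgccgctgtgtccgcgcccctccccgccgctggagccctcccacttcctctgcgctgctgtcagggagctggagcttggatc
Itgb7: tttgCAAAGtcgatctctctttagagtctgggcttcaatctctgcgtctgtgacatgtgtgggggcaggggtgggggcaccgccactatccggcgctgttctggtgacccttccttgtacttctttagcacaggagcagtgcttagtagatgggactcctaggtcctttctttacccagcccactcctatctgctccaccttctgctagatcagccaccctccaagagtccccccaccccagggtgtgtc
Lama5: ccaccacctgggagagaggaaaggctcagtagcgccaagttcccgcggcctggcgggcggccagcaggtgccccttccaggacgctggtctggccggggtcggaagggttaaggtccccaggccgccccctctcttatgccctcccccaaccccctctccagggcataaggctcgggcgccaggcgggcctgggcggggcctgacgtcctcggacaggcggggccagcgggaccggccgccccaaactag
Itga10: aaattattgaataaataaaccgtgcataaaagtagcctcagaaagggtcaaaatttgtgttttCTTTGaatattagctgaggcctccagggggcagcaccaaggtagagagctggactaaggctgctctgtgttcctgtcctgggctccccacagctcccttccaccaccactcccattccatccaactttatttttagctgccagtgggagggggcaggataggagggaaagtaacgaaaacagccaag
Itgb1: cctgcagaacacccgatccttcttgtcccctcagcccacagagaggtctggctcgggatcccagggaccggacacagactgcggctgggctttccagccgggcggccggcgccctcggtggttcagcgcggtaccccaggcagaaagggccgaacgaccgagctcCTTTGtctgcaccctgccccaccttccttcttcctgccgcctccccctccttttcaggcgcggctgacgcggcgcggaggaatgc
Of 32851 upstream stretches of this length in the table, 48.6% held CTTTG on either strand, and so did 13 of the 25 that belonged to the 22 genes. The longer run CTTTGAT, which contains it, was in 3.21% of all stretches and in 0 of those 25. The *Itga11* and *Lama5* stretches were rich in G and C (68.4% and 72.4%, against a median of 52.4% for all), as was that of *Itgb1* (68%), while *Itga10* held 48% and *Itgb7* 56%. Each start is that of 1 annotated transcript. The *Itgb7* stretch lay inside the annotated span of its gene, as did the last bases of the *Lama5* stretch. These counts describe letters and do not show binding.

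The largest fall with both proteins was that of a collagen receptor. *Itga11*, whose product pairs with beta1 and binds fibrillar collagen (chr9:62677855-62783979), had levels of 3.40, 3.28 and 3.24 with BSA, 2.99, 3.17 and 2.66 with Rspo2, 2.61, 2.58 and 2.29 with Wnt3a and 0.90, 1.36 and 1.53 with both proteins. The 4 groups did not overlap, and the combination lay lowest. The change with both proteins was -2.04 (SE 0.17, adjusted p = 1.28e-05), against -0.81 with Wnt3a (adjusted p = 0.006) and -0.36 with Rspo2 (adjusted p = 0.16). Both proteins lowered it 2.34-fold below Wnt3a alone (adjusted p = 0.00232). On slide 3, which held all 3 arrays of the combination and 1 of Wnt3a, this difference was -1.02. With slide as a term, the change with both proteins against BSA was -1.66 (adjusted p = 0.0817). Of 5 tested mesenchymal markers, 2 fell with both proteins and 0 rose, against 17.3% and 21.9% of all probes. *Pdgfra* was lower by 2.59-fold with both proteins (adjusted p = 8.77e-06) and *Pdgfrb* by 1.52-fold (adjusted p = 0.0015), while *Col1a2* (log2 change -0.19), *Col1a1* (log2 change -0.07) and *Vim* (log2 change 0.17) did not pass the test. The part of these markers in the fall of *Itga11* was not tested.

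*Itga10*, another collagen receptor that was lowered, was dim, with a median signal of 28.9 intensity units. It was above background on 3 arrays with BSA, 1 with Rspo2, 2 with Wnt3a and 3 with both proteins. Its levels were -3.73, -3.63 and -3.81 with BSA, -5.25, -5.87 and -4.98 with Rspo2, -5.07, -5.40 and -4.69 with Wnt3a and -4.06, -5.30 and -5.10 with both proteins. The BSA arrays lay above all others, and the 3 treated groups overlapped. It was 3.12-fold lower with Rspo2 (adjusted p = 0.015), 2.51-fold lower with Wnt3a (adjusted p = 0.0103) and 2.13-fold lower with both (adjusted p = 0.0194), and it was the only one of the 24 genes to pass the 2-fold requirement with either protein alone. With the normexp background correction in place of that of the scanner software, its change with Rspo2 was 0.071 (adjusted p = 0.96). Its fall with both proteins missed the call without BSA replicate 2 (adjusted p = 0.0572), without replicate 2 of the combination (-0.85, adjusted p = 0.082) and without its replicate 3 (-0.95, adjusted p = 0.0639). *Itga1*, a collagen receptor seen on 11 arrays, was lower with Rspo2 by 1.32-fold (adjusted p = 0.0493), a fall that missed the threshold under 20 of 25 alternative settings and turned to a rise that did not pass under 1. *Itga2*, also a collagen receptor, was not detected.

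**Figure D3:**
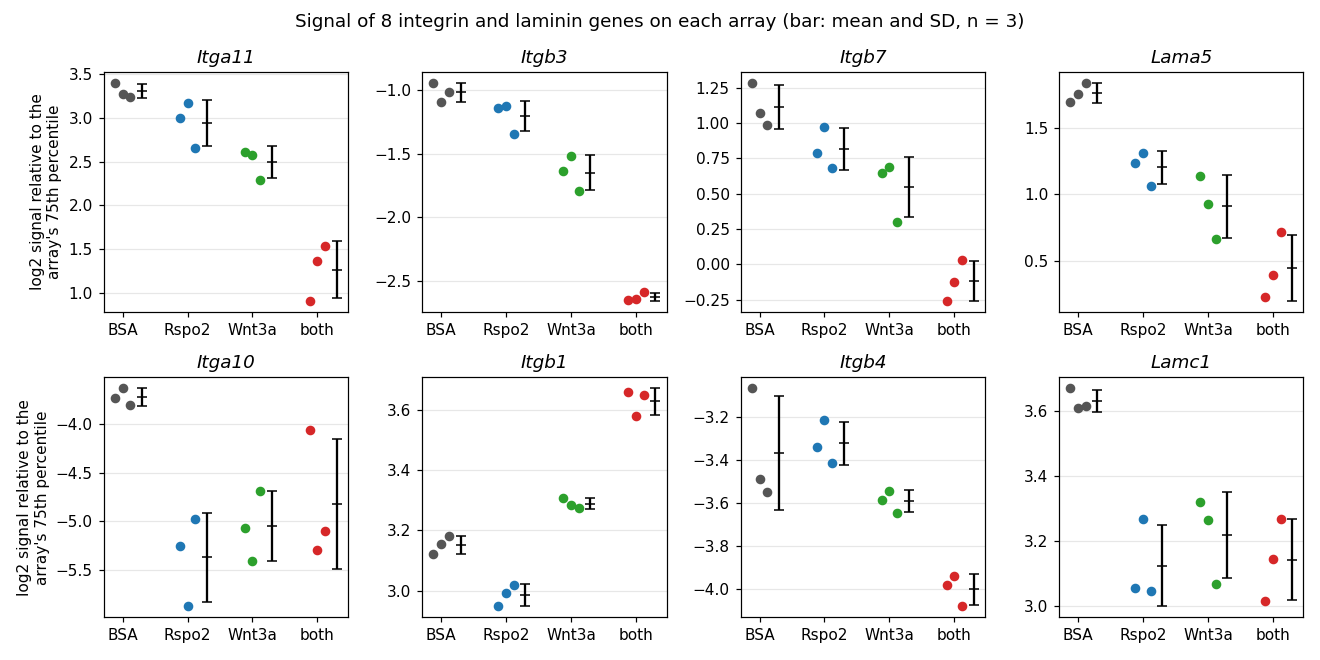
Log2 signal relative to the array's 75th percentile for 8 genes, 1 point per array, with the mean and SD of each group beside it (n = 3). *Itga11*, *Itgb7* and *Lama5* step down from BSA to the combination, *Itgb1* is highest with both proteins, and *Itgb3* is shown by its brightest probe, which its other probe did not match.

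*Itgb3* encodes the beta subunit that pairs with alphav in a receptor for vitronectin and other proteins with an RGD sequence (chr11:104608000-104670476). Its brightest probe, named after a cDNA record, gave levels of -0.94, -1.09 and -1.01 with BSA, -1.14, -1.12 and -1.34 with Rspo2, -1.63, -1.52 and -1.79 with Wnt3a and -2.65, -2.64 and -2.59 with both proteins. The 4 groups did not overlap, BSA and Rspo2 lay close together, and both proteins lowered the signal 3.06-fold (95% interval of the log2 change -1.81 to -1.41, adjusted p = 7.38e-07). It was also lower with both than with Wnt3a alone, by 1.97-fold (adjusted p = 0.000157), and by more than the changes with the single proteins add up to (interaction -0.79, adjusted p = 0.00741). The other *Itgb3* probe, designed on the RefSeq transcript, gave -2.40, -2.97 and -3.01 with BSA, -2.79, -3.01 and -2.98 with Rspo2, -2.95, -3.13 and -2.37 with Wnt3a and -2.51, -2.57 and -2.81 with both proteins. Here the groups overlapped, and the change with both proteins was 0.16 (95% interval -0.29 to 0.62, adjusted p = 0.568). The 2 intervals do not overlap, so the files give no single answer for the *Itgb3* transcript. The dimmer probe had a median signal of 147 intensity units against 302, and both probes were above background on all 12 arrays.

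The partner of beta3 and beta5, *Itgav*, had levels of 2.06, 2.19 and 2.13 with BSA, 1.87, 2.13 and 1.92 with Rspo2, 1.91, 1.86 and 1.79 with Wnt3a and 1.86, 1.67 and 1.59 with both proteins. With both proteins it fell by 0.42 on the log2 scale (adjusted p = 0.00561) and with Wnt3a it fell by 0.27 (adjusted p = 0.0472), but its second probe had another order. That probe fell by 0.72 in cells given Wnt3a alone (adjusted p = 0.00398), and its change in those given both proteins was -0.37 (adjusted p = 0.0569). Between the combination and Wnt3a that probe gave 0.35 (adjusted p = 0.21) and the brightest -0.14 (adjusted p = 0.46). For the brightest probe all 3 arrays of the combination lay below the BSA arrays and 1 lay within the range of Wnt3a. *Itgb5*, a further partner of alphav, was read at 4.80, 4.80 and 4.74 with BSA, 4.59, 4.71 and 4.55 with Rspo2, 4.62, 4.59 and 4.36 with Wnt3a and 4.21, 4.30 and 4.43 with both proteins, lower in all 3 arrays of the combination than in any BSA array. It fell by 0.46 with both proteins (adjusted p = 0.00265). *Itga5*, the alpha subunit of the main fibronectin receptor, gave 1.94, 1.91 and 2.02 with BSA, 1.56, 1.72 and 1.52 with Rspo2, 1.88, 1.92 and 1.28 with Wnt3a and 1.15, 1.11 and 1.66 with both proteins. It was 1.57-fold lower with both proteins (adjusted p = 0.0157), with all 3 arrays of the combination below BSA and overlapping with Wnt3a. The call was lost without replicate 1 (adjusted p = 0.0603) or 2 (adjusted p = 0.0666) of the combination or without BSA replicate 3 (adjusted p = 0.0501), and on slide 3 the combination differed from Wnt3a by 0.02. *Itga2b*, the alpha subunit of the fibrinogen receptor of platelets, was dimmer and gave -2.48, -2.52 and -2.95 with BSA, -2.59, -2.90 and -2.64 with Rspo2, -3.52, -3.65 and -3.17 with Wnt3a and -3.02, -3.73 and -3.98 with both proteins. It was 1.74-fold lower with Wnt3a (adjusted p = 0.0245) and 1.9-fold lower with both (adjusted p = 0.00959), and the combination overlapped with Wnt3a alone. The other 3 markers of the platelet lineage, *Pf4*, *Gp9* and *Gp1ba*, were not detected, and their summed signal was 0.032 to 0.0505 with BSA and 0.022 to 0.0461 with both proteins, in multiples of the 75th percentile.

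*Itgb8*, the last detected partner of alphav, gave no clear change. Its brightest probe differed between the combination and BSA by 0.26 (95% interval -0.01 to 0.54, adjusted p = 0.12). A second probe fell by 0.41 (adjusted p = 0.0172), and another, dim probe gave 0.19 (adjusted p = 0.434). *Itgb3* and *Itgb8* were the 2 of 10 genes with more than 1 tested probe whose probes differed in sign in this comparison. *Itgb6* and *Itga8* were not detected.

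**Figure D4:**
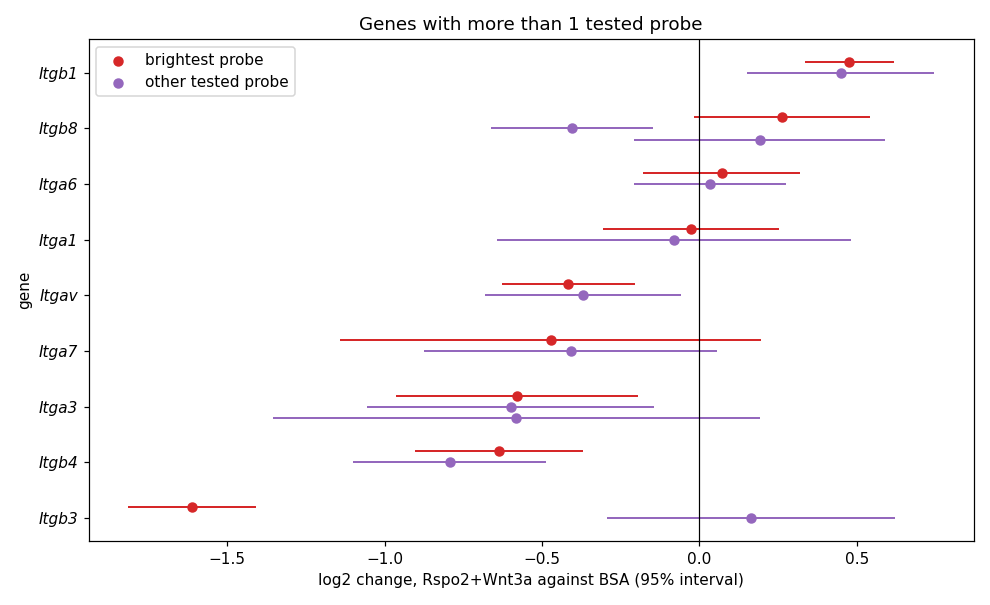
Log2 change between the combination and BSA for each tested probe of 9 of the 10 genes with more than 1 tested probe, with 95% intervals (n = 3 arrays per group). The intervals of the 2 *Itgb3* probes do not meet, and the probes of *Itgb1*, *Itgb4*, *Itga3* and *Itgav* lie on the same side of 0.

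*Itgb1* rose with both proteins, unlike *Itga11*, *Itga10* and *Itga5*, whose products pair with it. It encodes the beta subunit shared by the collagen, laminin and fibronectin receptors (chr8:128685654-128733579), and its levels were 3.12, 3.15 and 3.18 with BSA, 2.95, 2.99 and 3.02 with Rspo2, 3.31, 3.28 and 3.27 with Wnt3a and 3.66, 3.58 and 3.65 with both proteins. For this brightest probe the spread within groups was small, no groups overlapped, and the order was Rspo2, BSA, Wnt3a and both. The rise with both proteins was 1.39-fold (adjusted p = 0.000247), and neither protein alone passed the test (Rspo2 -0.16, adjusted p = 0.0877, and Wnt3a 0.14, adjusted p = 0.116). The combination exceeded Wnt3a alone by 0.34 (adjusted p = 0.0112), and by 0.35 on slide 3. The interaction was 0.50 (adjusted p = 0.0103). A second probe rose by 0.45 with both proteins (adjusted p = 0.0215), and its interaction was 0.87 (adjusted p = 0.0241). It had another order, with a mean of 2.23 with Wnt3a below that of 2.41 with BSA. That change was -0.19 (adjusted p = 0.312), and the Wnt3a and BSA arrays overlapped. For the brightest probe the change against BSA with slide as a term was 0.44 (adjusted p = 0.195).

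Among the laminin-binding receptors the subunits differed. *Itgb4*, which with alpha6 forms the receptor of hemidesmosomes, gave -3.06, -3.49 and -3.55 with BSA, -3.34, -3.21 and -3.41 with Rspo2, -3.58, -3.54 and -3.64 with Wnt3a and -3.98, -3.94 and -4.08 with both proteins. All 3 arrays of the combination lay below the other 9, and *Itgb4* was 1.55-fold lower than with BSA (adjusted p = 0.00209), as was its second probe by 1.73-fold (adjusted p = 0.00133). *Itga3*, which with beta1 binds the laminins of the epithelial basement membrane, gave 2.96, 3.25 and 3.41 with BSA, 2.81, 2.77 and 2.91 with Rspo2, 3.20, 2.69 and 2.63 with Wnt3a and 2.42, 2.56 and 2.90 with both proteins. It fell by 0.58 with both proteins (adjusted p = 0.0217), and this missed the threshold without BSA replicate 3 (adjusted p = 0.0831) or replicate 1 of the combination (adjusted p = 0.0843), among 4 such arrays. A second probe fell by 0.60 (adjusted p = 0.0389). *Itga6*, which binds laminin with beta1 or beta4, did not pass with Wnt3a (-0.07) or with both (0.07, 95% interval -0.18 to 0.32). With Rspo2 it fell by 0.38 (adjusted p = 0.0419). The change with Rspo2 held in its second probe (-0.37, adjusted p = 0.0404). The brightest probe of *Itga7*, whose product binds laminin in muscle, had overlapping groups in all comparisons and passed in no comparison. Its second probe lay below BSA on all arrays of Rspo2 (-0.45, adjusted p = 0.155) and of Wnt3a (-0.56, adjusted p = 0.0658), and neither change passed.

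Both detected beta subunits best known from leukocytes fell. *Itgb7* (chr15:102215994-102233405), which pairs with alpha4 or alphaE, had levels of 1.28, 1.07 and 0.98 with BSA, 0.79, 0.97 and 0.68 with Rspo2, 0.64, 0.69 and 0.30 with Wnt3a and -0.26, -0.12 and 0.03 with both proteins. The 3 arrays of the combination lay below all other arrays. *Itgb7* was 1.48-fold lower with Wnt3a (adjusted p = 0.00854) and 2.35-fold lower with both proteins (adjusted p = 6.17e-05), and the combination was 1.58-fold below Wnt3a alone (adjusted p = 0.0167), a difference lost without Wnt3a replicate 2 (adjusted p = 0.0792), among 4 such arrays. With slide as a term its change with both was -0.91 (adjusted p = 0.145). *Itgb2*, the subunit shared by the leukocyte integrins, was dim (62.6 intensity units) and gave -3.24, -3.37 and -2.96 with BSA, -3.47, -3.58 and -3.64 with Rspo2, -4.19, -4.02 and -3.98 with Wnt3a and -3.94, -4.13 and -4.42 with both proteins. The Wnt3a and combination arrays lay below all BSA and Rspo2 arrays and overlapped with each other. It was 1.83-fold lower with Wnt3a (adjusted p = 0.00168) and 1.96-fold lower with both (adjusted p = 0.000399). Of 6 leukocyte markers, *Ptprc*, the defining one, was above background on 1 array, 4 were tested and 2 were above background on all 12 arrays. The summed signal of the 6 ran from 0.465 to 0.498 on BSA arrays, from 0.411 to 0.478 on those of the combination, and from 0.405 to 0.528 with the single proteins, in multiples of the 75th percentile. *Csf1r* was 1.69-fold lower with both (adjusted p = 0.0217), and *Cd3e* was 2.01-fold lower with Wnt3a (adjusted p = 0.0397). Each was the 1 of the 4 that passed there, where 17.3% (both) and 13.2% (Wnt3a) of all probes fell. Their part in the falls of *Itgb2* and *Itgb7* was not tested.

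The alpha partners of these subunits were dim or not detected. *Itgae*, the partner of beta7 that binds E-cadherin, was above background on 1 array with BSA, 1 with Rspo2, 0 with Wnt3a and 3 with both proteins. Its levels were -5.16, -5.55 and -5.32 with BSA, -5.09, -4.93 and -4.48 with Rspo2, -5.26, -5.17 and -5.24 with Wnt3a and -4.71, -4.77 and -4.98 with both proteins. All 3 arrays of the combination lay above BSA and Wnt3a and within the range of Rspo2. It was 1.42-fold higher with Rspo2 (adjusted p = 0.0458) and 1.44-fold higher with both (adjusted p = 0.0197), and the combination did not pass against Wnt3a alone (adjusted p = 0.192). The BSA and Rspo2 signals in these folds were not well above background on 2 of 3 arrays each, and the gene passed the filter through the combination alone. The change with both missed the threshold without BSA replicate 2 (adjusted p = 0.0787), among 3 such arrays, and turned to -0.22 with the normexp correction (adjusted p = 0.856). *Itgal*, a partner of beta2, was above background on all arrays and passed in no comparison. *Itga4*, *Itga9*, *Itgam* and *Itgax* were not detected.

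Laminin genes that fell included an alpha and a gamma chain. *Lama5*, the alpha chain of the laminins found in most adult basement membranes (chr2:180176373-180225904), had levels of 1.69, 1.75 and 1.83 with BSA, 1.24, 1.31 and 1.07 with Rspo2, 1.13, 0.93 and 0.67 with Wnt3a and 0.23, 0.40 and 0.72 with both proteins. The BSA arrays lay highest and did not overlap with any treated group, and the combination overlapped with Wnt3a alone at 1 array. *Lama5* was 1.47-fold lower with Rspo2 (adjusted p = 0.0294), 1.8-fold lower with Wnt3a (adjusted p = 0.00217) and 2.48-fold lower with both (SE 0.14 of the log2 change, adjusted p = 7.22e-05). The interaction was 0.09 (95% interval -0.35 to 0.54). With slide as a term the change with both was -0.90 (adjusted p = 0.201). *Lama3*, the alpha chain of the laminin of hemidesmosomes, was dim and passed in no comparison, and *Lama1*, *Lama2* and *Lama4* were not detected.

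*Lamc1*, the gamma chain of most laminins, gave 3.67, 3.61 and 3.61 with BSA, 3.06, 3.27 and 3.05 with Rspo2, 3.32, 3.26 and 3.07 with Wnt3a and 3.02, 3.14 and 3.27 with both proteins. Every treated array lay below the BSA arrays, and the 3 treated groups overlapped. It was 1.42-fold lower with Rspo2 (adjusted p = 0.015), 1.33-fold lower with Wnt3a (adjusted p = 0.0096) and 1.4-fold lower with both proteins (adjusted p = 0.00288). *Lamb3*, a beta chain, and *Lama3* differed from BSA by -0.14 (95% interval -0.61 to 0.33) and 0.39 (95% interval -0.02 to 0.80) with both proteins, and neither passed. *Lamb2* had overlapping groups in all comparisons, and *Lamc3* was not detected. The main laminin beta chain, *Lamb1*, is listed on the array under its older symbol *Lamb1-1*, which the choice by name left out. It was 1.49-fold lower with Rspo2 (adjusted p = 0.035), 1.44-fold lower with Wnt3a (adjusted p = 0.0273) and 1.58-fold lower with both (adjusted p = 0.00735).

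With Rspo2 alone, 5 of the 24 genes fell (*Itga10*, *Lama5*, *Lamc1*, *Itga1* and *Itga6*) and 1 rose (*Itgae*), against 5.93% and 10.9% of all tested probes. *Itga10* was the gene past the 2-fold requirement, which 0.721% of all probes passed. The median change of the 24 genes was -0.18, against 0.01 for all probes. With the percentile over probes above background on all arrays, 7 of the 24 fell and 0 rose, against 10.2% and 5.04% of all probes. On slide 1, which held the BSA arrays and 1 Rspo2 array, 22 of the 24 changes had the sign found over all arrays, among them *Itga10* (-1.53), *Lama5* (-0.52) and *Lamc1* (-0.57). The arrays of slide 1 are also part of the change over all arrays, so the like signs are no separate check. With slide as a term in limma 0 of the 24 passed, with 5 at an unadjusted p under 0.05, and the methods' t-test, a test of unequal variance, gave 0 after adjustment and 6 before. Without BSA replicate 1, limma left 0 (the count was 1 without Rspo2 replicate 3), and each of the 6 calls was lost without some array.

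With Wnt3a alone, 9 of the 24 fell and 1 rose, against 13.2% and 18.3% of all probes. The 9 were *Itga10*, *Itgb2*, *Lama5*, *Itga11*, *Itga2b*, *Itgb3*, *Itgb7*, *Lamc1* and *Itgav*. *Itga10* again was the gene past the 2-fold requirement, against 2.52% of all probes. The median change was -0.27, against -0.0003 for all probes. The calls of *Itga2b* and *Itgav* were lost without single arrays. That of *Itga2b* was lost without replicate 1 or 2 of BSA or of Wnt3a (adjusted p from 0.0596 to 0.0881). That of *Itgav* was lost without any 1 of the 6 BSA and Wnt3a arrays, replicates 1 and 3 of Rspo2 or replicate 2 of the combination (adjusted p from 0.0507 to 0.133). With the percentile over probes above background on all arrays, 12 of the 24 fell and 0 rose, against 21.3% and 11.7% of all probes. No slide held BSA beside Wnt3a. With slide as a term in limma 0 of the 24 passed, with 5 at an unadjusted p under 0.05, and the methods' t-test gave 0 after adjustment and 10 before.

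The combination was compared with Wnt3a alone to find what Rspo2 added. *Itga11*, *Itgb3* and *Itgb7* were lower with both proteins and *Itgb1* was higher, so 3 of the 24 genes fell and 1 rose, against 2.49% and 1.78% of all probes. *Itga11* was changed by at least 2-fold, as were 0.747% of all probes. The median change of the 24 was -0.09, against 0.004 for all probes. On slide 3, 19 of the 24 differences had the sign found over all arrays, with values of -0.83 for *Itgb3* and -0.42 for *Itgb7*. These differences share their arrays with those over all arrays, so the like signs are no separate check. With slide as a term *Itgb3* was the gene that passed.

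The interaction takes the effects of Rspo2 and of Wnt3a given singly from that of the combination. In it *Itga10* (1.88, adjusted p = 0.0324), *Itga1* (0.68, adjusted p = 0.0414) and *Itgb1* were positive and *Itgb3* was negative. These are 3 of 24 genes in the positive and 1 in the negative direction, against 3.58% and 5.31% of all probes, and 1 with at least 2-fold, *Itga10*, against 1.93%. For *Itga10* each protein alone lowered the signal, and the level with both was not below either. For *Itga11* the interaction was -0.86 and did not pass (adjusted p = 0.0522). With the percentile over probes above background on all arrays, 5 of the 24 were positive and 1 negative, against 5.6% and 3.36% of all probes. The median over the 24 genes was 0.05, against -0.003 for all probes, and with slide as a term in limma 0 of the 24 passed, with 5 at an unadjusted p under 0.05. The call of *Itga10* was lost without any 1 of 7 arrays, to an adjusted p of at most 0.0819, and that of *Itga1* without any 1 of 10. The comparisons with BSA share its 3 arrays, so their lists of genes are not independent of each other.

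The effect of the slides was followed for the comparison of the combination with BSA. When slide was taken as a random block, with an estimated correlation of 0.136 between arrays of a slide, 13 of the 24 genes passed and the 5 genes lower by at least 2-fold did so too. When slide was a fixed term, the changes were estimated through the split Rspo2 and Wnt3a groups, and the share of all probes past the 2-fold rule was 2.2% in place of 5.08%. Under this fit *Itga11* kept a change of -1.66, *Itgb3* -1.30 (adjusted p = 0.0121), *Itga10* -1.46, *Itgb2* -0.96 and *Itgb1* 0.44. *Itga5* came to -0.09 and *Itgae* to 0.17, neither past the threshold.

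**Figure D5:**
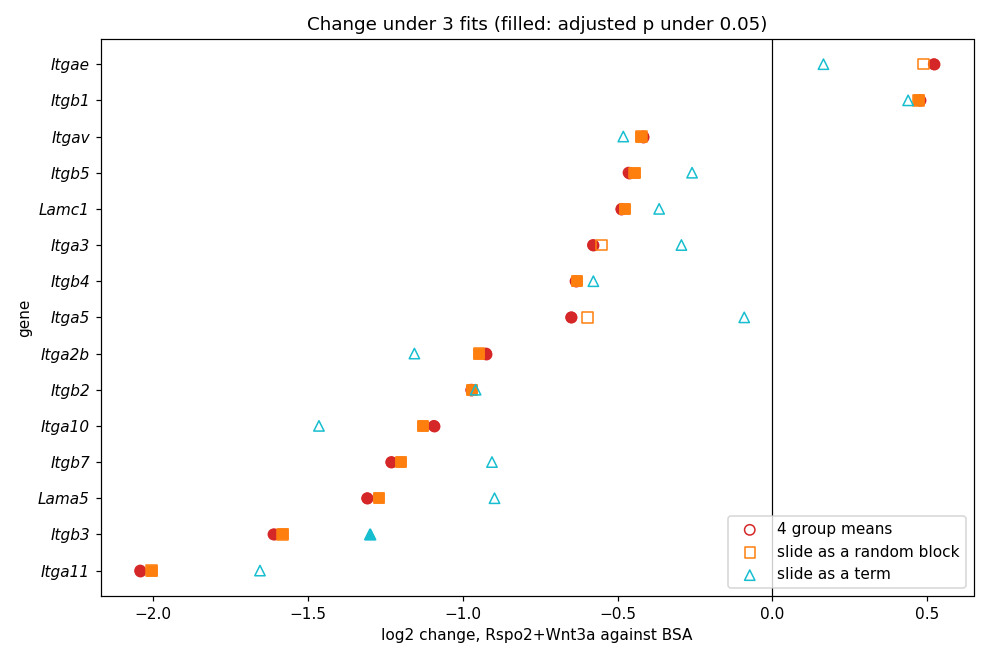
Log2 change between the combination and BSA for 15 of the 16 genes with an adjusted p under 0.05, in the fit of 4 group means (circles), with slide as a random block (squares) and with slide as a term (triangles). Symbols are filled at an adjusted p under 0.05. All 15 keep their side of 0, and with slide as a term the filled symbol is that of *Itgb3*.

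Genes that work with integrins were followed in a list of 61 that the arrays held, comprising cytoskeletal linkers, adhesion signalling proteins, hemidesmosome and tetraspanin proteins, other basement membrane proteins and other integrin ligands. Of the 51 tested, 15 rose and 9 fell with both proteins, against 21.9% and 17.3% of all probes, and 3 rose and 2 fell by at least 2-fold, against 5.08% of all probes in either direction. *Cyr61* and *Ctgf*, matricellular ligands of integrins, rose 2.56- and 2.53-fold (adjusted p = 9.23e-07 and 3.51e-06), with all treated arrays above all BSA arrays. *Itgbl1*, an integrin-like secreted protein, was above background on 0 of 3 BSA arrays and on all 3 that received both proteins. There it was higher by at least 2.11-fold. It is counted among the 3 that rose by at least 2-fold, but it was tested only through the combination, the group where it was high. The bound sets the mean of the combination against the lowest signal above background on each BSA array. *Ctgf* and *Itgbl1* were among genes the study had picked from these samples. *Tns1*, a linker of integrins to actin, fell 2.61-fold (adjusted p = 0.000328), and *Agrn*, a basement membrane proteoglycan, fell 2.15-fold (adjusted p = 0.000325). Of the 5 tested basement membrane proteins other than laminins, 2 fell and 0 rose, *Agrn* and the collagen IV chain *Col4a2* (-0.66, adjusted p = 0.0445).

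Of 8 tested hemidesmosome and tetraspanin genes, 4 rose and 2 fell with both proteins, against 21.9% and 17.3% of all probes. The 4, *Cd151*, *Cd81*, *Cd63* and *Cd82*, encode tetraspanins that associate with integrins and rose by 0.31 to 0.41. *Col17a1* (-0.52, adjusted p = 0.00509) and *Dst* (-0.43, adjusted p = 0.00536), components of hemidesmosomes, fell, as did *Itgb4*. *Plec1* and *Cd9*, the rest of the list, did not pass. Of the hemidesmosome integrin and laminin genes named above, *Itga6* (0.07) and *Lama3* (0.39) did not pass either. *Spp1*, a ligand of alphav integrins, had an interaction of -1.06 (adjusted p = 0.00268). This was the 1 change of at least 2-fold among the 51 genes in that comparison, against 1.93% of all probes. With Rspo2 alone 9 of the 51 rose and 4 fell, against 10.9% and 5.93% of all probes. With Wnt3a alone 11 rose and 4 fell, against 18.3% and 13.2%. The fit put *Itgbl1* past 2-fold with each. It was above background on 1 Rspo2 and 2 Wnt3a arrays, which gives at least 1.22-fold with Wnt3a and no bound above 1 with Rspo2. Between the combination and Wnt3a 2 rose and 1 fell, against 1.78% and 2.49%, with 0 changed by at least 2-fold. Of the 24 integrin and laminin genes 54.2% fell with both proteins, and the median change of the 51 partners was 0.05 against -0.47, a description for which no test was made.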

How the data were processed

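RNA from 12 monolayers of C57MG cells was labelled in 1 colour and hybridized to Agilent whole mouse genome arrays, 1 monolayer to an array. The deposited array files hold the intensity of each spot as extracted by the authors with Agilent Feature Extraction (version 9.5.3.1 in the submitters' processing notes), after subtraction of the local background, with flags for uneven, outlying, saturated and well-above-background spots. The authors' table of values, used as an alternative, holds for each probe the ratio of the background-subtracted signal to the 75th percentile of its array, as deposited.

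From the intensities, 1327 of 520548 spot values flagged as uneven or outlying were left out, the spots of a probe were averaged (41174 probes), and the log2 value less the log2 of the 75th percentile of the array was taken. The 22750 probes tested had the well-above-background mark in a whole group, meaning on each of its 3 arrays and for at least 0.5 of their spots there. One limma fit of 4 group means over all 12 arrays (R 4.3.3 with limma 3.58.1) gave the log2 changes, standard errors, 95% intervals and p-values for 5 comparisons, and each adjusted p in the text is limma's after Benjamini-Hochberg adjustment over the 22750 probes unless another test is named. Calling a gene changed took both an adjusted p under 0.05 and a difference of at least 2-fold. The filter and the fold are those of the study's methods, which set no adjustment of the p-values and used a t-test of unequal variance. With 3 arrays a group their number limits the precision.

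Values in every array were printed for the integrin and laminin genes called changed in any comparison and then for those with the largest changes with both proteins, up to about 25 genes, and the partner genes named are those called changed in any comparison together with members of the 2 short lists described. The members, the lists and these rules were chosen with earlier results of these data known. Alternatives covered the normexp background correction (offset 50), quantile normalization, the probes used for the percentile and the filter, the flags, slide as a term or a random block, the replicate number as a block, the groups in the fit, the authors' table, the methods' t-test, the second probe of each gene and leaving out each array. The fit was tested on simulated data with known changes. Probes were named by the gene name in the array files. The 3 slides were taken from the array files, which put all of BSA on slide 1 and all of the combination on slide 3. Rspo2 was split over slides 1 (replicate 1) and 2, and Wnt3a over slides 2 and 3 (replicate 3). Promoter stretches and gene positions came from RefSeq tables of build GRCm38.p6. Of the 24 genes tested, 1 is counted but its values are not reported here. Figures were drawn with matplotlib 3.10.9.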

Additional observations from a re-analysis of the deposited data

Results flagged for a closer look

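*Itga10* was picked out because the effect of Rspo2 on it differed between cells with and without Wnt3a in the test of that difference. Its interaction was 1.88 on the log2 scale (adjusted p = 0.0324 in limma), with a change of -1.64 between Rspo2 alone and BSA. Between the combination and Wnt3a it was 0.23 (adjusted p = 0.751), with overlapping groups, and -0.13 on slide 3. The probe was dim and was above background on 1 of 3 Rspo2 arrays. With the normexp correction the interaction was -0.15 (adjusted p = 0.961). Groups of 3 arrays were not searched for outlying samples.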

How the results depend on the processing

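The direction of change was stable under most settings and the number of calls was not. Of 996 values of the 40 integrin and laminin results under alternatives, 744 kept their direction and call, 244 kept the direction and lost the call, and 8 changed sign. The 8 were, with the normexp correction, *Itga1* with Rspo2 (0.39), *Itga10* with Rspo2 (0.071), *Itgae* with both proteins (-0.22) and the interactions of *Itga1* (-0.37) and *Itga10* (-0.15), and, with the second probe of *Itgb3*, its change with both proteins (0.16), against Wnt3a (0.19) and its interaction (0.32). The cause was not tested.

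The genes changed by at least 2-fold numbered 1 with Rspo2, 1 with Wnt3a, 5 with both, 1 between both and Wnt3a and 1 in the interaction. With slide as a term they numbered 0, 0, 1, 0 and 0 in this order. The normexp correction gave 0 in all but the comparison of both with BSA, and the adjusted t-test of the methods gave 0, 0, 3 and 0 in the 4 comparisons it was run for. Testing the probes above background on all arrays gave 0 with Rspo2, with Wnt3a and in the interaction. Without a filter there were 0 with Rspo2 and 0 in the interaction, and with slide as a random block 0 in the interaction. At an adjusted p under 0.05 alone the numbers were 6, 10, 16, 4 and 4, against 0, 0, 1, 1 and 0 with slide as a term, 0, 0, 4, 0 and 0 with normexp and 0, 0, 6 and 0 with the adjusted t-test. For Rspo2, 3 passed among the probes above background on all arrays, 0 without a filter and 3 with the 2 groups alone in the fit. Between both and Wnt3a, 2 passed without a filter and 2 with those groups alone. In the interaction 1 passed without a filter and 2 with slide as a random block. At an unadjusted p under 0.05, normexp gave 4, 5, 9, 4 and 3 genes, slide as a term 5, 5, 7, 7 and 5, and the t-test 6, 10, 13 and 6. Fewer of all probes passed at an adjusted p under 0.05 as well. In the fit of 4 group means 10.9% rose and 5.93% fell with Rspo2, and 21.9% and 17.3% with both proteins. With slide as a term the shares were 0.136% and 0.295%, and 0.809% and 1.71%. With normexp they were 0% and 0.0176%, and 1.98% and 2.64%. With the adjusted t-test they were 0% and 0.00879%, and 8.51% and 6.18%. Among the partner genes 5 were changed by at least 2-fold with both proteins, and 2 with slide as a term.

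With single arrays left out, the 2-fold counts ran from 0 to 1 (Rspo2), 1 to 1 (Wnt3a), 4 to 7 (both), 1 to 2 (both against Wnt3a) and 0 to 2 (interaction), and the counts at an adjusted p under 0.05 from 0 to 5, 7 to 12, 12 to 17, 3 to 6 and 2 to 5. The Rspo2 count was 0 without BSA replicate 1, and between both and Wnt3a 6 passed without Wnt3a replicate 3. From 24 to 25 genes were detected.

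The replicate number as a block left 2 genes with an adjusted p under 0.05 with Rspo2 and changed no other count by more than 1.5 times. Arrays with the same number did not vary together (correlations of deviations from the group means -0.413 to 0.271), so the numbers do not pair the arrays. Signals near background limit *Itga1*, *Itga10*, *Itgae*, *Lama3* and *Itgb2*, and the 11 genes not detected have no change given. *Itgb4*, with a median signal of 74.7 intensity units, was also dim.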
